A study of Mus musculus with 30 samples.

Results

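The genes of the mitochondrial genome are the 37 genes of the mouse annotation whose symbol starts with mt-, among 55450 annotated genes. They comprise 13 protein-coding genes, 2 ribosomal RNA (rRNA) genes and 22 transfer RNA (tRNA) genes, and none was chosen by its level. Their expression was examined in left ventricles of male, wild-type C57BL6J mice from a pair of studies that were run separately, with 30 hearts in all. In the peptide study, 7 mice received recombinant human Aβ42 and 7 received ScrAβ42, the same peptide with its sequence scrambled, by daily i.p. injection from 12 weeks of age for 4 weeks. The GEO labels give the dose as 1 mg per day, whereas the methods of the study give it in micrograms. In the antibody study, 8 mice received 3D6, an antibody that neutralises Aβ42, and 8 received a control antibody (ControlAb). The study's methods describe these antibody-treated mice as fed a high fat diet with weekly antibody injections, whereas the series' description says that they were given Aβ42, so what both antibody groups share is not settled here. RNA came from whole ventricle, so more RNA per cell and more cells of a type, or more mitochondria per cell, cannot be told apart.

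The mitochondrial genome is a small circle with genes on both strands. Each strand is transcribed into long precursors that are cut at the tRNAs, which lie between the other genes, so that messenger RNAs (mRNAs), rRNAs and tRNAs of a strand start from the same transcript and reach their levels through processing and decay. The proteins are subunits of the respiratory chain and of ATP synthase, the machinery that makes most of the ATP in heart muscle, where mitochondria fill much of the cell.

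Peptide hearts had between 4478991 and 6015767 counts each and antibody hearts between 6397192 and 8310478 estimated counts. No pair of hearts of a group agreed within counting noise. All 7 cardiomyocyte markers were detected in both studies, and their summed level was between 40509 and 85269 CPM (counts per 1000000 counts, on library sizes scaled by edgeR's TMM factors) in peptide hearts and between 45642 and 57767 CPM in antibody hearts. Of 5 atrial markers, all detected, the summed level ranged from 12.4 to 8417 CPM in Aβ42 hearts and from 3.82 to 3665 CPM in ScrAβ42 hearts. The hearts labelled Abeta42_3451, Abeta42_3455, Abeta42_3457, Abeta42_3458 and ScrAbeta42_3448 were above 1000 CPM. Other markers differed too. Blood markers (5 of 5 detected) summed to 556 to 5073 CPM in Aβ42 hearts (median 1519) and to 802 to 15945 CPM in ScrAβ42 hearts (median 3317). Adipose markers (5 of 5) reached 392.04 CPM in Aβ42 hearts and 86.8 CPM in ScrAβ42 hearts. Brown adipose markers (2 of 2) were at most 0.194 CPM in ScrAβ42 hearts and reached 56.9 CPM in Abeta42_3451 and 260 CPM in Abeta42_3457. In the antibody study the summed level of the atrial markers ranged from 1.06 to 670 CPM in 3D6 hearts and from 0.825 to 2785 CPM in ControlAb hearts.

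Mitochondrial tRNAs read the codons of the 13 mRNAs, and in the transcribed genome they also mark where precursors are cut. The 4 tRNA genes with the highest level per length in the peptide study are shown because they carry most of the tRNA counts described below. They are written 5′ to 3′ as the RNA's own strand in the GENCODE vM21 transcripts (GRCm38), with T for U and the anticodon in capitals. The genes mt-Tc, mt-Ta and mt-Tp lie on the minus strand at chrM:5192-5257, chrM:5018-5086 and chrM:15356-15422, and mt-Tl1 lies on the plus strand at chrM:2676-2750.
mt-Tc (cysteine): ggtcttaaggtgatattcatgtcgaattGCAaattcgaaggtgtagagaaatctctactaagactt
mt-Ta (alanine): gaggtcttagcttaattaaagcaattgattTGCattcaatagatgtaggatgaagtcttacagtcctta
mt-Tp (proline): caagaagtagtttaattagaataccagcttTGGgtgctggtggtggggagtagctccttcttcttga
mt-Tl1 (leucine): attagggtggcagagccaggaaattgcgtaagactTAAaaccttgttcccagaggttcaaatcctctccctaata

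Several mitochondrial genes also have near-identical copies in the nuclear genome, annotated as pseudogenes. A search of all annotated transcripts, with at least 90% identity over at least 100 bases, found 17 nuclear copies of 11 mitochondrial genes. Of these, 7 stand side by side on the minus strand of chromosome 1 at chr1:24611535-24616197 (GRCm38) and the stretches aligned by the search together span positions 6390 to 11042 of the mitochondrial genome. Within this block, Gm28661 matched 681 of the 684 bases of mt-Co2, Gm10925 678 of the 681 of mt-Atp6, Gm28437 783 of the 784 of mt-Co3 and Gm10222 294 of the 297 of mt-Nd4l, all with 0 differing bases. A read from these stretches could therefore come from either locus. Gm28439 matched the first 876 of the 1378 bases of mt-Nd4 with 0 differing bases. The other two copies carry a few differing bases, shown here in capitals because they are the letters by which a read can be placed. In Gm29216, a copy of the last 492 bases of mt-Co1, all 6 differing bases lie near its start, and the rest of the copy matched the gene (positions 1054 to 1083 from the first base of mt-Co1; T1056A, C1057T, A1059G, A1060G, C1062A and A1066T, with the base of the mitochondrial gene first). In Gm28438 the only difference from the first 345 bases of mt-Nd3 is T3C, counted from the first base of the gene.
mt-Co1, positions 1054 to 1083: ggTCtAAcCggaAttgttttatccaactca
Gm29216, the matching bases: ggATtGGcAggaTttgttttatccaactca
mt-Nd3, positions 1 to 30: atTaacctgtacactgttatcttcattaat
Gm28438, the matching bases: atCaacctgtacactgttatcttcattaat

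Neighbouring genes can share bases too. The genes mt-Atp8 and mt-Atp6, which encode the only ATP synthase subunits of the mitochondrial genome, overlap by 43 bases at chrM:7927-7969, from the first codon of mt-Atp6 to the stop codon of mt-Atp8, both in capitals below. The genes mt-Nd4l and mt-Nd4 overlap by 7 bases at chrM:10167-10173. Reads from such overlaps cannot be assigned to 1 gene by sequence.
mt-Atp8 and mt-Atp6 overlap: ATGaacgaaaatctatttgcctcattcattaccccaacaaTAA

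The mitochondrial genes took a large share of each library, and this share did not separate treated from control hearts in either study. In Aβ42 hearts they held 18.8% ± 3.09 of all counts (SD, n = 7), with a lowest value of 12.9%, a median of 18.6% and a highest of 21.7%. In ScrAβ42 hearts they held 18.5% ± 2.69 (n = 7), from 13.8% through a median of 17.9% to 22.2%. The difference of the means was 0.249 percentage points with a standard error (SE) of 1.55, and the groups overlapped almost fully. The lowest share of each group was in a heart with atrial markers above 1000 CPM, Abeta42_3457 and ScrAbeta42_3448. Abeta42_3451, Abeta42_3455 and Abeta42_3458, also above 1000 CPM, had shares of 21.2%, 18.6% and 18.4%, near or above the median of their group. Without the 5 hearts above that level the difference was 0.760 percentage points, and the part of atrial tissue in the share was not tested. Abeta42_3457 also had the highest adipose and brown adipose markers of the study, and ScrAbeta42_3448 the highest blood markers, and their part was not tested either.

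In 3D6 hearts the mitochondrial genes held 33.5% ± 2.18 of all counts (n = 8), from 30.6% through a median of 33.2% to 37.8%. In ControlAb hearts they held 31.6% ± 3.71 (n = 8), from 25.9% through a median of 31.2% to 37.7%. Of 8 hearts given 3D6, 7 lay above the ControlAb median, but the ranges overlapped and the difference of 1.92 percentage points had an SE of 1.52. With counts on the nuclear copies added, the shares were 43.0% ± 1.62 (40.8 to 46.1%) and 41.7% ± 2.31 (38.9 to 45.6%), a difference of 1.33 with an SE of 0.997. These copies alone held between 7.34% and 13.0% of the counts of a heart in the antibody study, and between 0.00216% and 0.00481% in the peptide study. The 2 tables were processed separately, so the higher share in the antibody study is not a test of one study against the other.

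**Figure D1:**
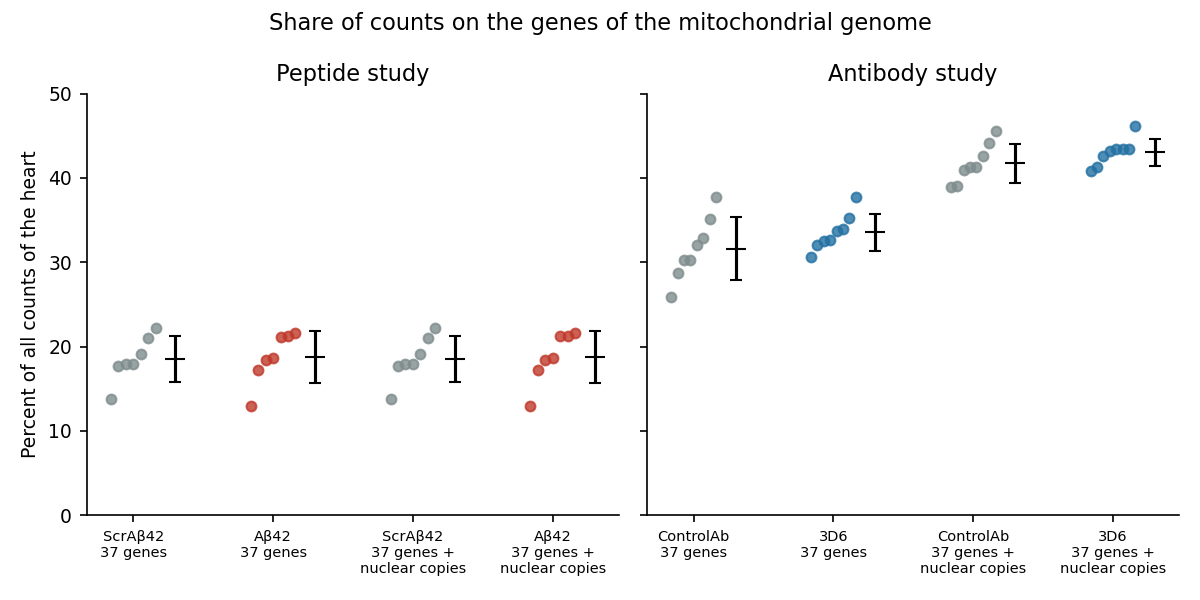
Percent of all counts of a heart (vertical axis) on the 37 mitochondrial genes, alone and with their nuclear copies, by group and study. Points are hearts in rising order and bars are mean ± SD; groups of a study overlap throughout, and adding the copies moves only the antibody study, to between 38.9% and 46.1%.

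Within the mitochondrial counts, protein-coding genes held 96.2% ± 0.550 in the 14 peptide hearts and 94.4% ± 1.26 in the 16 antibody hearts. The rRNA genes held 3.53% ± 0.530 and 5.58% ± 1.26. The tRNA genes held 0.264% ± 0.0258 of the mitochondrial counts in peptide hearts and 0.000447% ± 0.000413 in antibody hearts. Libraries were made from total RNA, and whether mitochondrial rRNA was depleted is not given in the sources used here. Levels between genes are compared below as CPM per kb, the CPM divided by the length of the gene.

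Of the protein-coding genes, mt-Co1, the catalytic core subunit of cytochrome c oxidase (complex IV), had the highest level in both studies, at 37880 ± 7713 CPM per kb over 14 peptide hearts and 79024 ± 14187 over 16 antibody hearts. Next came mt-Cytb, the mitochondrially encoded subunit of complex III, at 33119 ± 6037 and 38070 ± 3840 CPM per kb. In the peptide study mt-Co1 and mt-Cytb were apart by less than 1 SD, whereas in the antibody study mt-Co1 was apart from mt-Cytb by more than 2 SD of either gene. Of the 7 mitochondrial subunits of NADH dehydrogenase (complex I), mt-Nd1 followed mt-Cytb in both, at 23927 ± 5288 and 32948 ± 3180 CPM per kb. In the peptide study mt-Nd2 followed at 17718 ± 3661, mt-Nd6 at 13376 ± 3344, mt-Nd5 at 13096 ± 2890 and mt-Nd4 at 9689 ± 1829 CPM per kb, where mt-Nd6 and mt-Nd5 were apart by far less than their spread. The level of mt-Nd4 divides by its whole length of 1378 bases, although the first 876 lie in a stretch in which other genes had almost no counts in the peptide table. The same holds for the last 483 of the 1545 bases of mt-Co1. The places of mt-Nd4 and mt-Co1 in the peptide study, and the gap between mt-Co1 and mt-Cytb there, hold only under that limit.

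In the antibody study mt-Nd4 came next at 28665 ± 3444 CPM per kb, then mt-Nd2 at 19200 ± 4692. The ATP synthase subunit gene mt-Atp6 stood at 15115 ± 2837, and mt-Nd6, mt-Nd5, mt-Co3 and mt-Atp8 lay between 10291 and 12685 CPM per kb, each within 1 SD of its neighbour. The genes mt-Co2 and mt-Co3 encode the other mitochondrial subunits of cytochrome c oxidase. Lowest were mt-Co2 at 6117 ± 2188, mt-Nd3 at 3990 ± 1685 and mt-Nd4l at 2317 ± 741 CPM per kb. The levels of genes with chromosome 1 copies depended on whether the copies were kept apart. With gene and copies summed, mt-Co2 stood at 57601 ± 6163 CPM per kb, mt-Co3 at 49015 ± 7387, mt-Atp6 at 47920 ± 5000, mt-Nd3 at 10129 ± 2626 and mt-Nd4l at 7461 ± 2858. Thus mt-Co2, mt-Co3 and mt-Atp6 came after mt-Co1. The means of mt-Nd3 and mt-Nd4l were still the lowest, but mt-Nd3 was apart from mt-Atp8 (10291 ± 2526) by far less than 1 SD.

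The peptide table held almost nothing for a run of neighbouring genes. The genes mt-Atp8, mt-Atp6, mt-Co3 and mt-Nd4l had a count of 0 in all 14 hearts, and a count of 0 allows up to 3 counts per heart, for counting error alone. Another 2 were near 0, mt-Co2 with a mean of 0.0714 counts per heart and mt-Nd3 with a mean of 6.50. These 6 genes lie between chrM:7013 and chrM:10173, inside the stretch that the chromosome 1 block repeats, and each has bases in common with another annotated gene. The chromosome 1 copies had means between 0.857 and 8.71 counts in the peptide study, so the counts were on neither locus. Of the 5 tRNA genes inside the stretch that the block repeats, mt-Ts1, mt-Td, mt-Tk and mt-Tg had 0 counts in all peptide hearts and mt-Tr a mean of 17.1. In the antibody study these 6 protein-coding genes had means between 4817 and 72028 counts. How the peptide table treated reads that match more than 1 gene is not given in the sources used here and was not tested.

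**Figure D2:**
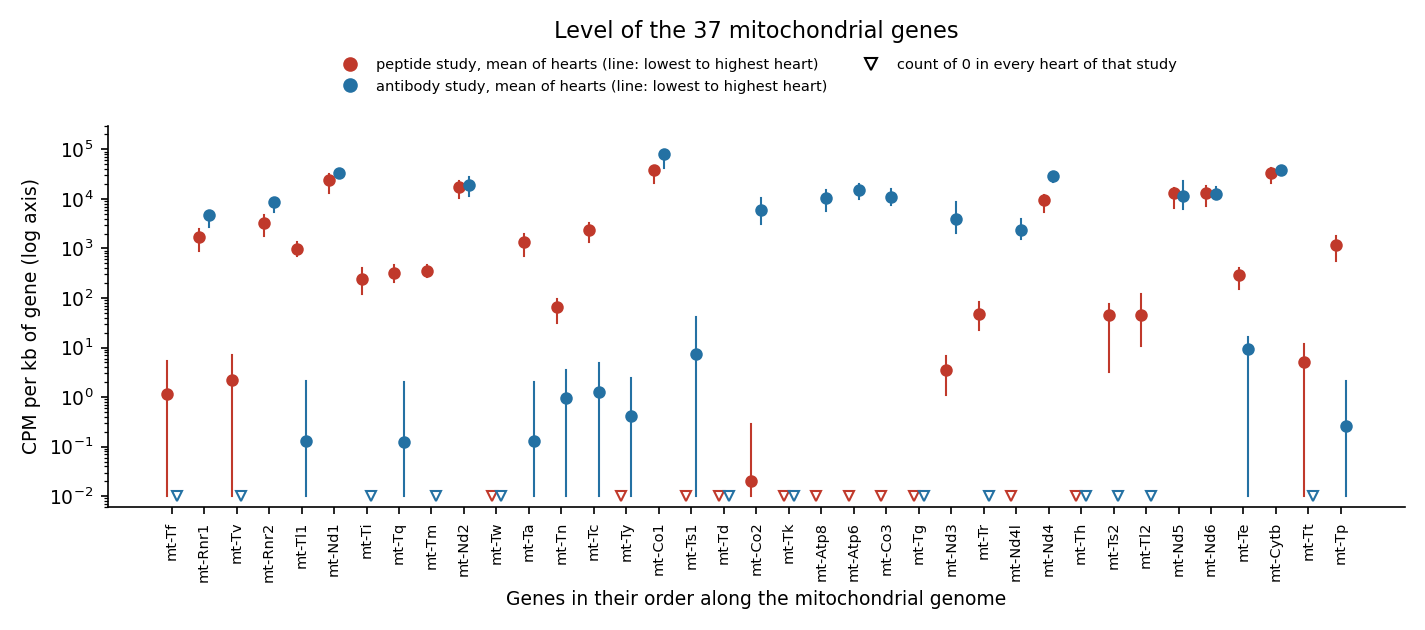
Level of each mitochondrial gene in CPM per kb of gene (vertical log axis) in genome order (horizontal axis), for each study. Points are means over hearts, lines run from the lowest to the highest heart and end at the foot of the axis where a heart had 0 counts, and open triangles mark genes with 0 counts in every heart, such as mt-Atp8, mt-Atp6, mt-Co3 and mt-Nd4l in the peptide study.

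The rRNA genes, mt-Rnr2 for the large and mt-Rnr1 for the small mitochondrial ribosomal subunit, lie at chrM:1094-2675 and chrM:70-1024. The tRNA gene mt-Tv, at chrM:1025-1093, lies between them. The level of mt-Rnr2 was 3197 ± 881 CPM per kb in peptide hearts and 8549 ± 1135 in antibody hearts, and that of mt-Rnr1 1725 ± 518 and 4673 ± 826 CPM per kb.

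Counts on tRNA genes fell on few of them. In the peptide study 15 of the 22 had a count in at least 1 heart and 12 had a mean of at least 10 counts. The highest were mt-Tc at 2369 ± 556 CPM per kb, mt-Ta at 1345 ± 324, mt-Tp at 1178 ± 349 and mt-Tl1 at 954 ± 180, and mt-Ta and mt-Tp were apart by less than 1 SD. A middle group held mt-Tm (methionine), mt-Tq (glutamine), mt-Te (glutamate) and mt-Ti (isoleucine), between 243 and 346 CPM per kb. The genes mt-Tn (asparagine), mt-Tr (arginine), mt-Ts2 (serine) and mt-Tl2 (leucine) lay between 44.5 and 67.1 CPM per kb. Lower still, mt-Tt, mt-Tv and mt-Tf had means between 1.18 and 5.17 CPM per kb, and the remaining 7 had 0 counts in all 14 hearts. The 8 tRNA genes on the minus strand, which lie on the precursor that also holds mt-Nd6, took 75.2% ± 2.67 of the tRNA counts of a heart (68.0 to 79.2%). Of these 8, 6 had a mean of at least 10 counts, against 6 of the 14 on the plus strand. In the antibody study 9 tRNA genes had any count and none had a mean of 10 counts, with mt-Te the highest at 9.40 ± 4.78 CPM per kb. Counts on a tRNA gene can come from the mature tRNA or from an uncut precursor, which cannot be told apart here.

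The comparison of Aβ42 with ScrAβ42 addresses whether raised circulating Aβ42 alters expression of these genes in the heart. Of 37 genes, 21 passed the minimum of a mean of 10 counts per heart and were tested together with all other genes (edgeR quasi-likelihood test, two-sided). No mitochondrial gene was called at an adjusted p of 0.05, as was none of the 11985 genes tested (0%). At an unadjusted p under 0.05 the count was again 0 of 21, beside 6.51% of all genes tested. With DESeq2 the counts were 0 of 21 at either threshold, beside 0.1% of all genes at an adjusted p of 0.05 and 6.1% at an unadjusted p of 0.05. The CPM of Aβ42 and ScrAβ42 hearts overlapped for all 21 genes, and 0.0918% of all genes tested did not overlap. The log2 fold change was above 0 for 7 of 21, beside 50.5% of all genes (with DESeq2 for 7 of 21 beside 49.3%), and the median was -0.02 for the mitochondrial genes and 0.00 for all genes.

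The smallest unadjusted p belonged to mt-Rnr1. Its level in Aβ42 hearts was between 845 and 2305 CPM with a median of 1389, and in ScrAβ42 hearts between 1014 and 2371 CPM with a median of 1941. Only 1 of 7 Aβ42 hearts lay above the ScrAβ42 median, though the ranges overlapped almost fully. The log2 fold change was -0.31 (SE 0.21, 95% interval -0.73 to 0.11, edgeR adjusted p = 0.841). For mt-Rnr2, Aβ42 hearts lay between 2802 and 6469 CPM (median 4497) and ScrAβ42 hearts between 3251 and 7652 (median 5532), with a log2 fold change of -0.21 (SE 0.20, edgeR adjusted p = 0.889). As a share of mitochondrial counts, the rRNA genes held 3.25% ± 0.312 in Aβ42 hearts and 3.80% ± 0.575 in ScrAβ42 hearts, and 0 of 7 Aβ42 hearts lay above the ScrAβ42 median. As a share of mitochondrial counts mt-Nd4 held 6.92% in Aβ42 hearts and 7.25% in ScrAβ42 hearts, a difference of -0.327 percentage points (SE 0.102), again with 0 of 7 Aβ42 hearts above the ScrAβ42 median. No test was run on these shares. With the mitochondrial counts as library size, the log2 fold change of mt-Rnr1 was again -0.31, with an unadjusted edgeR p of 0.0151 and an adjusted p of 1.00. In the same fit mt-Nd4 was at -0.067 (SE 0.048), with an unadjusted edgeR p of 0.182.

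Among protein-coding genes the log2 fold changes of the 7 tested were between -0.06 for mt-Nd4 and 0.05 for mt-Co1, 4 of them above 0. The level of mt-Co1 ranged from 32068 to 72152 CPM in Aβ42 hearts (median 63317) and from 38328 to 72700 CPM in ScrAβ42 hearts (median 59543). Its log2 fold change of 0.05 had a 95% interval from -0.31 to 0.41. The gene mt-Nd4, lowest of those tested when divided by its whole length, ranged from 7617 to 15733 CPM (median 12704) and from 9152 to 16821 CPM (median 13489). The gene of the other strand, mt-Nd6, lay between 3772 and 9601 CPM (median 7319) in Aβ42 hearts and between 4221 and 8866 CPM (median 6831) in ScrAβ42 hearts, a log2 fold change of 0.04 (SE 0.20). Of genes near 0, mt-Nd3 had values from 0.382 to 1.87 CPM in Aβ42 hearts and from 0.717 to 2.30 CPM in ScrAβ42 hearts, and the single count on mt-Co2 was in an Aβ42 heart.

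Of the 12 tRNA genes tested, 3 had a log2 fold change above 0. The second and the third smallest p of the mitochondrial genes were those of mt-Tq and mt-Ta, both on the minus strand. The level of mt-Tq was 14.8 to 25.7 CPM (median 21.1) in Aβ42 hearts and 17.5 to 32.7 CPM (median 22.5) in ScrAβ42 hearts, with a log2 fold change of -0.17 (SE 0.16, edgeR adjusted p = 0.879). For mt-Ta the values were 48.2 to 108 CPM (median 87.3) and 66.0 to 138 CPM (median 106), with a log2 fold change of -0.19 (SE 0.18, edgeR adjusted p = 0.886). Both pairs of ranges overlapped. The most abundant, mt-Tc, lay between 89.3 and 186 CPM (median 158) in Aβ42 hearts and between 98.8 and 220 CPM (median 166) in ScrAβ42 hearts.

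The other well-covered tRNA genes showed the same overlap. The level of mt-Tp was 37.9 to 119 CPM (median 79.9) against 51.4 to 107 CPM (median 80.9), and that of mt-Tl1 59.7 to 83.4 CPM (median 75.3) against 53.3 to 99.4 CPM (median 64.9), Aβ42 hearts first. For mt-Tm it was 18.5 to 27.1 CPM (median 26.7) against 18.9 to 31.5 CPM (median 23.8). The Aβ42 values thus lay inside or across the ScrAβ42 range for all of these. For mt-Te the values were 10.3 to 27.2 CPM (median 17.96) against 13.9 to 28.4 CPM (median 19.4), and for mt-Ti 8.24 to 24.4 CPM (median 14.7) against 10.05 to 27.3 CPM (median 15.7).

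The last 4 tRNA genes tested had few counts. Values of mt-Tn were 2.20 to 5.99 CPM (median 5.14) against 2.85 to 6.93 CPM (median 4.59), and those of mt-Tr 2.67 to 3.95 CPM (median 3.48) against 1.53 to 5.74 CPM (median 2.71). Values of mt-Ts2 were 0.191 to 4.55 CPM (median 2.32) against 1.75 to 4.54 CPM (median 3.06). Those of mt-Tl2 were 0.764 to 8.48 CPM (median 2.62) against 1.00 to 4.85 CPM (median 2.65). The log2 fold changes of mt-Ts2 (-0.33, SE 0.38) and mt-Tl2 (0.22, SE 0.46) were the lowest and the highest of all 21 genes, with the widest errors.

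Direction in the peptide study moved with single hearts and with the atrial markers. With ScrAbeta42_3448 left out, 1 of 21 genes had a log2 fold change above 0, and with Abeta42_3457 left out 13 of 21 had. With a score of the atrial markers as a covariate 20 of 21 were above 0, mt-Co1 at 0.34 (edgeR adjusted p = 0.701), mt-Rnr1 at 0.084 and mt-Tl2 at 1.01 (adjusted p = 0.545). With the 5 hearts above 1000 CPM left out instead, 8 of 21 were above 0. No gene was called under any of these settings. The part of atrial tissue in these values was not tested further.

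**Figure D3:**
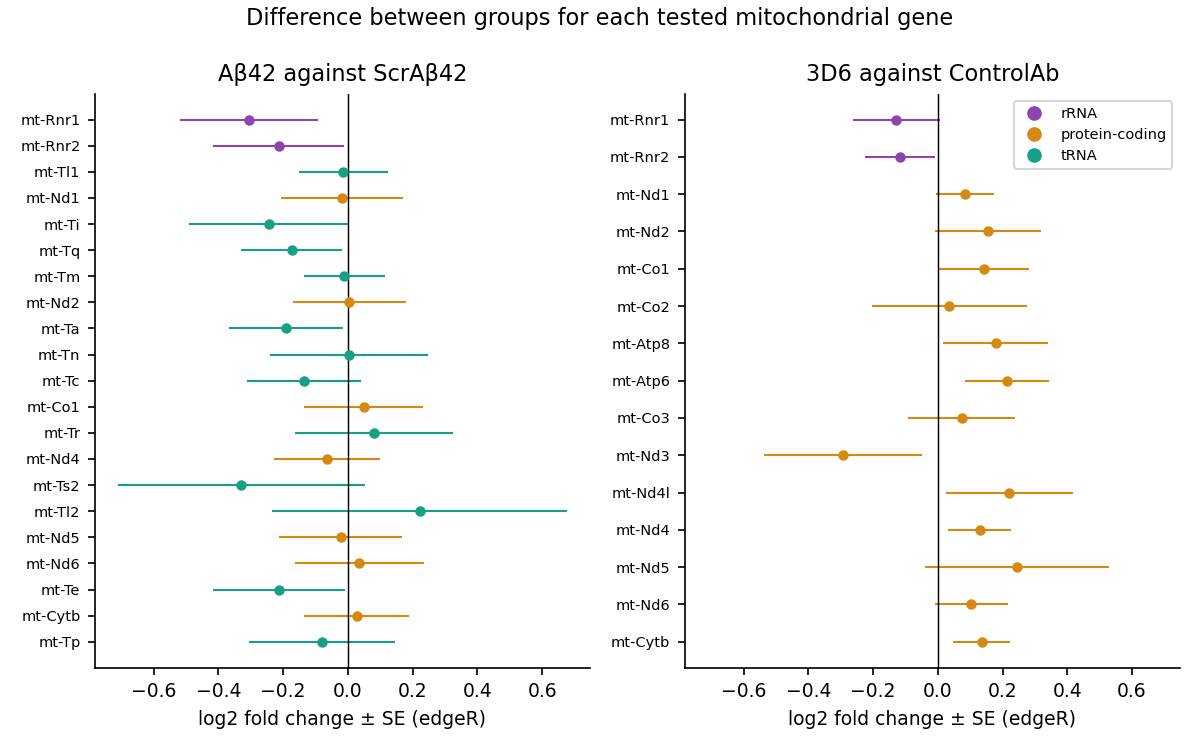
Log2 fold change (horizontal axis, edgeR estimate ± SE) of each tested mitochondrial gene, 21 of the peptide study and 15 of the antibody study, in genome order and coloured by class. In the antibody study 12 of 13 protein-coding genes are above 0 and both rRNA genes are below 0, and no gene passed the test.

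The comparison of 3D6 with ControlAb addresses whether neutralising Aβ42 alters these genes. Here 15 genes were tested, all 13 protein-coding and both rRNA genes. No mitochondrial gene was called at an adjusted p of 0.05 (0% of 12141 genes tested with edgeR, and 0% with DESeq2). At an unadjusted p under 0.05 the count was 0 of 15 with edgeR and 0 of 15 with DESeq2, beside 3.67% and 3.68% of all genes. The CPM of the groups overlapped for all 15, as for all other genes tested (0%). The log2 fold change was above 0 for 12 of 15, beside 47.2% of all genes (with DESeq2 for 12 of 15 beside 48.9%), with a median of 0.13 for the mitochondrial genes and -0.01 for all genes. Only mt-Nd3 and the rRNA genes were below 0. With the counts on the 37 genes as library size, which set the median of all genes at -0.16, 8 of 15 were above 0.

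The smallest p was that of mt-Atp6. Its level was 9247 to 13064 CPM (median 11072) in 3D6 hearts and 6841 to 13840 CPM (median 9554) in ControlAb hearts, and 6 of 8 3D6 hearts lay above the ControlAb median. The log2 fold change was 0.21 (SE 0.13, 95% interval -0.04 to 0.47, edgeR adjusted p = 0.944). Summed with its copies, mt-Atp6 had 33132 ± 3967 CPM in 3D6 hearts and 32136 ± 2921 CPM in ControlAb hearts, which lie within 1 SD of each other. For mt-Cytb the values were 41057 to 50538 CPM (median 45676) against 34394 to 49026 CPM (median 41283), a log2 fold change of 0.14 (SE 0.09, edgeR adjusted p = 0.944). For mt-Nd4 they were 37653 to 47806 CPM (median 41121) against 29584 to 47532 CPM (median 37263), a log2 fold change of 0.13 (SE 0.10, edgeR adjusted p = 0.944). All 8 3D6 hearts lay above the ControlAb median of mt-Nd4, inside the ControlAb range or just above it.

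The most abundant mRNA, mt-Co1, lay between 107626 and 153473 CPM (median 125791) in 3D6 hearts and between 63992 and 150095 CPM (median 117719) in ControlAb hearts, a log2 fold change of 0.14 (SE 0.14). The least abundant per length, mt-Nd4l, lay between 469 and 1149 CPM (median 633) and between 459 and 911 CPM (median 589), a log2 fold change of 0.22 (SE 0.20). The gene of the other strand, mt-Nd6, lay between 5284 and 8957 CPM (median 6790) and between 5485 and 8095 CPM (median 6142), a log2 fold change of 0.10 (SE 0.11). These 3 ranges overlapped between groups.

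Both rRNAs had negative estimates, as in the peptide study, and neither passed the test. The level of mt-Rnr1 was 2608 to 5097 CPM (median 4515) in 3D6 hearts and 3626 to 5408 CPM (median 4802) in ControlAb hearts, a log2 fold change of -0.13 (SE 0.13). That of mt-Rnr2 was 8798 to 14846 CPM (median 13717) against 11436 to 15790 CPM (median 14302), a log2 fold change of -0.12 (SE 0.11). With the mitochondrial counts as library size the estimates were -0.28 for mt-Rnr1 and -0.27 for mt-Rnr2 (edgeR adjusted p = 0.609 for each), beside the median of -0.16 for all genes. The remaining genes had log2 fold changes of 0.25 (SE 0.28) for mt-Nd5, 0.18 (SE 0.16) for mt-Atp8, 0.15 (SE 0.16) for mt-Nd2, 0.08 (SE 0.09) for mt-Nd1, 0.07 (SE 0.17) for mt-Co3, 0.04 (SE 0.24) for mt-Co2 and -0.29 (SE 0.24) for mt-Nd3. With the counts of its copy summed, mt-Nd3 was at -0.11 (SE 0.17).

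Counts were divided between gene and nuclear copy in different proportions in different hearts of the antibody study. Gm28661 held 84.4 to 92.9% of the counts of the pair with mt-Co2 in 3D6 hearts and 83.5 to 93.2% in ControlAb hearts. Gm28437 held 71.2 to 81.3% and 73.3 to 82.5% of the pair with mt-Co3. Gm10925 held 63.3 to 71.5% and 56.1 to 80.6% of the pair with mt-Atp6, the ControlAb hearts spreading more widely. For Gm10222 and mt-Nd4l the shares were 63.6 to 76.6% and 58.2 to 75.1%, and for Gm28438 and mt-Nd3 they were 55.5 to 71.5% and 44.5 to 64.2%. Each of these 5 nuclear copies thus held most of the counts of its pair in all 16 hearts, apart from Gm28438 in 1 ControlAb heart, although 4 of them match their gene without a differing base. By contrast Gm28439, which matches the first 876 bases of mt-Nd4, had a mean of 2.31 counts (0 to 19) beside 276549 on mt-Nd4. Gm29216 held 0.00445 to 10.996% and 0.000685 to 22.0% of the pair with mt-Co1. Mean counts were 246667 on Gm28661, 207659 on Gm28437, 156441 on Gm10925, 52603 on Gm29216, 14944 on Gm28438 and 10645 on Gm10222, and 21.1 on Gm13340 and 28.9 on Gm13341, chromosome 2 copies of mt-Co1 and mt-Co2. In the peptide study 3 copies reached a mean of 10 counts, Gm13340 with 99.9, Gm13341 with 27.1 and Gm4076, a copy of mt-Nd5, with 24.5. None of the copies tested was called in either study.

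**Figure D4:**
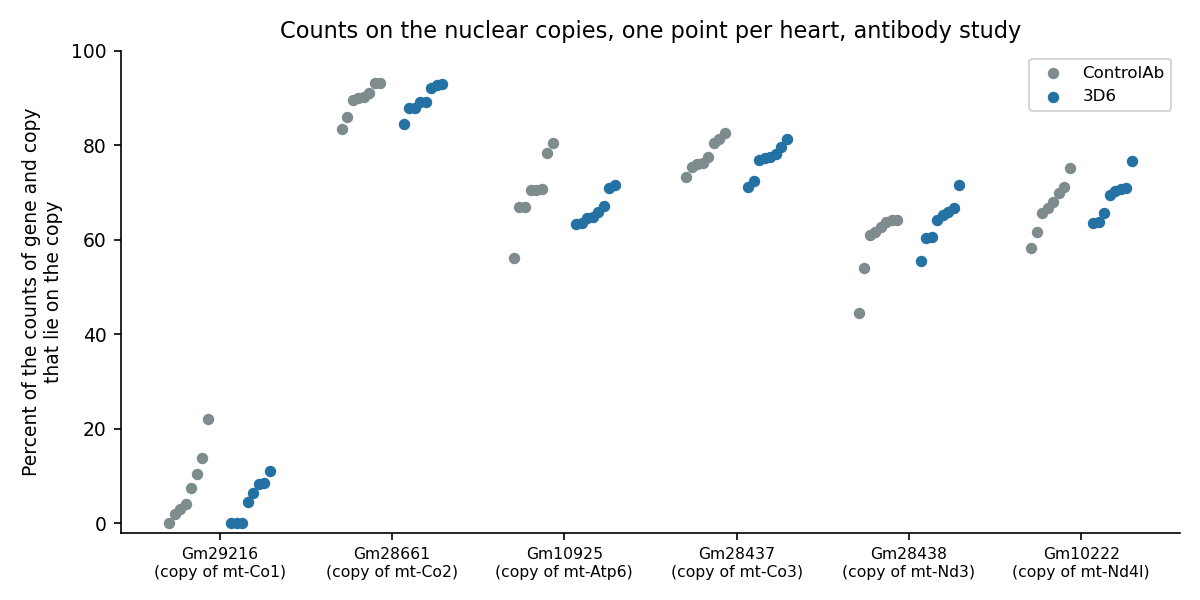
Percent of the counts of a mitochondrial gene and its chromosome 1 copy that lie on the copy (vertical axis), for the 6 pairs with a mean of at least 1000 counts on the copy in the antibody study, 1 point per heart. The copies of mt-Co2, mt-Co3, mt-Atp6, mt-Nd3 and mt-Nd4l hold between 44.5% and 93.2%, the copy of mt-Co1 at most 22.0%, and the groups overlap in every pair.

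In 4 hearts Gm29216 was nearly without counts, and several mitochondrial genes moved with it. ControlAb mouse 8 had 7 counts on Gm29216, 3D6 mouse 12 had 50, 3D6 mouse 7 had 139 and 3D6 mouse 4 had 321, and the other 12 hearts had between 18983 and 126337. In these 4 hearts mt-Nd5 had 238405 to 263735 counts, whereas the other 12 had 81665 to 164508. The ranges were apart for mt-Nd4l as well, 6206 to 8480 counts against 3302 to 5454, and for mt-Nd2, 161594 to 198601 against 84287 to 158169. In mt-Nd3 the order was turned, 5002 to 6713 counts against 7439 to 21457. ControlAb mouse 22 stood at the other end, with the most counts on Gm29216 (126337) and on mt-Nd3 (21457) and the fewest on mt-Co1 (447454). These hearts were picked by these values and the pattern is given as a description.

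The 4 hearts are all among the 6 with mouse numbers 3 to 12, and the antibody hearts differed along their numbers in other values as well. The log2 ratio of mt-Nd6 to mt-Nd5 was -2.33 to -1.66 in mice 3 to 12 and -1.51 to -1.03 in mice 15 to 24. The mitochondrial share was 32.8 to 37.8% in the former and 25.9 to 33.7% in the latter, and mt-Nd5 was 20051 to 41354 and 11226 to 17278 CPM. Both ranges of numbers hold hearts of each group. Within mice 3 to 12 the share was 35.6% ± 1.97 with 3D6 and 35.2% ± 2.46 with ControlAb (n = 3 each), and within mice 15 to 24 it was 32.3% ± 1.11 and 29.4% ± 2.30 (n = 5 each). For mt-Atp6 the mean was 10656 CPM with 3D6 and 11389 CPM with ControlAb in mice 3 to 12, and 11294 and 8416 CPM in mice 15 to 24, so the difference had opposite signs in the 2 ranges, which was not tested. The log2 ratio of mt-Cytb to mt-Nd1 was higher with 3D6 in both, by 0.042 and 0.060. This split was chosen after its values were seen, and what the numbers stand for is not given in the labels. All ScrAβ42 mice have lower numbers than all Aβ42 mice, so order of numbering and group cannot be told apart in the peptide study.

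Of the 4 hearts low on Gm29216, 3 were given 3D6. Without these 4 hearts, which leaves 2 ControlAb hearts and no 3D6 heart of mice 3 to 12, the log2 fold change of mt-Nd5 was -0.14 and that of mt-Nd4l -0.10, and that of mt-Atp6 was 0.34 (edgeR adjusted p = 0.999). Within mice 15 to 24, which hold none of the 4, mean mt-Nd5 was 14999 CPM with 3D6 and 13911 CPM with ControlAb, and mean mt-Nd4l 558 and 533 CPM.

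**Figure D5:**
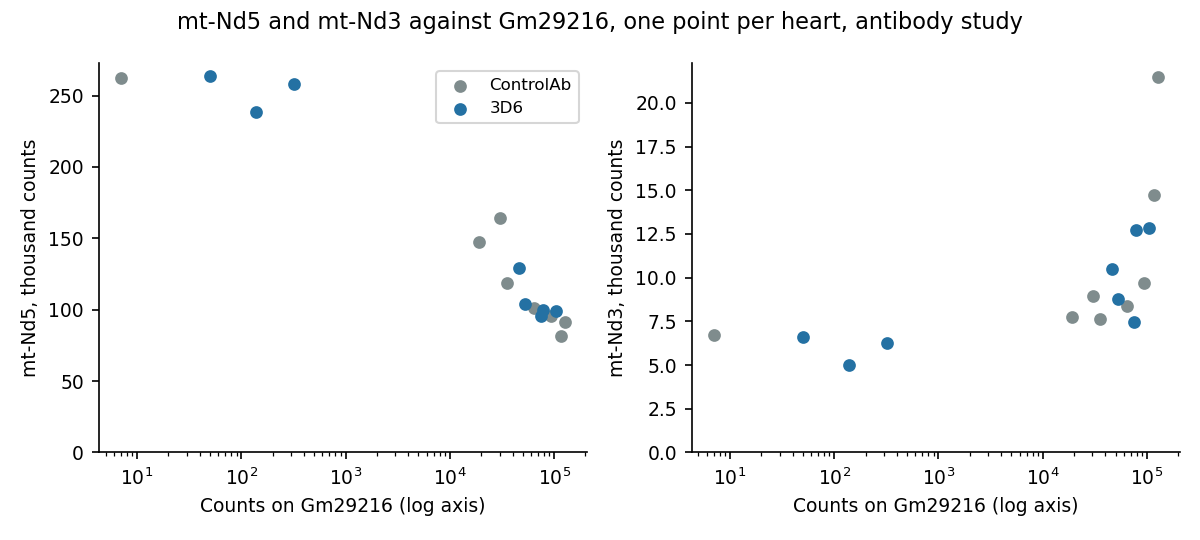
Counts on mt-Nd5 (left) and mt-Nd3 (right), in units of 1000 counts, against counts on Gm29216 (log axis), 1 point per heart of the antibody study. The 4 hearts with under 1000 counts on Gm29216 hold 238405 to 263735 counts on mt-Nd5 and 5002 to 6713 on mt-Nd3.

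Ratios of 2 mitochondrial genes do not depend on library size. Over 6 ratio tests, adjusted together, none passed 0.05. Against mt-Nd1, the first protein-coding gene after the rRNAs, mt-Cytb, the last on that strand, stood at 1.41 ± 0.0355 in 3D6 hearts (1.36 to 1.48) and at 1.36 ± 0.0347 in ControlAb hearts (1.31 to 1.40). All 8 3D6 hearts lay above the ControlAb median, with overlapping ranges, and the difference was 0.05 on the log2 scale (SE 0.018, exact permutation test, two-sided, p = 0.0109, adjusted p = 0.0653). In the peptide study the same ratio was 1.69 ± 0.107 in Aβ42 hearts and 1.65 ± 0.140 in ScrAβ42 hearts (log2 difference 0.04, exact permutation p = 0.543, adjusted p = 0.719). The ratio of mt-Rnr2 to mt-Rnr1 was 3.23 ± 0.293 in Aβ42 hearts and 2.98 ± 0.202 in ScrAβ42 hearts (log2 difference 0.11, exact permutation p = 0.0868, adjusted p = 0.260). Between 3D6 and ControlAb hearts it was 3.09 ± 0.331 and 3.04 ± 0.193 (exact permutation p = 0.740). The ratio of mt-Nd6 to its neighbour mt-Nd5 on the opposite strand was 0.296 ± 0.0213 in Aβ42 hearts and 0.283 ± 0.0124 in ScrAβ42 hearts (exact permutation p = 0.213, adjusted p = 0.427), and 0.343 ± 0.111 and 0.366 ± 0.0941 in the antibody study (exact permutation p = 0.599). These 2 genes overlap on opposite strands, and whether counting used the strand is not given in the sources used here.

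The mitochondrial genome is copied, transcribed and read by proteins from nuclear genes. Of 87 such genes listed, 82 passed the count minimum for the peptide study and 84 for the antibody study, and 0 were called in either (edgeR). At an unadjusted p under 0.05, 1 was higher and 1 lower in Aβ42 hearts, and 2 were higher and 1 lower in 3D6 hearts, beside 6.51% and 3.67% of all genes tested. Above 0 were 28 of 82 in the peptide study, with a median log2 fold change of -0.04, and 58 of 84 in the antibody study, with a median of 0.06, beside 50.5% and 47.2% of all genes above 0 and medians of 0.00 and -0.01. By group, genes of transcription and replication had medians of -0.05 (15 tested) and 0.06 (16 tested). Genes of RNA processing, modification and decay had -0.04 (45 tested) and 0.05 (46 tested), and mitochondrial aminoacyl-tRNA synthesis genes -0.06 and 0.06 (22 tested in each). For 26 nuclear-encoded partners of the mitochondrial subunits the medians were -0.07 and -0.06, with 4 and 6 genes above 0, beside the same 50.5% and 47.2% of all genes, and 0 called, beside 0% of all genes in each study.

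Polrmt, the mitochondrial RNA polymerase, was 28.0 to 48.3 CPM in Aβ42 hearts and 36.8 to 52.3 CPM in ScrAβ42 hearts (log2 fold change -0.21, SE 0.11), and 28.1 to 36.0 CPM in 3D6 hearts and 30.1 to 38.8 CPM in ControlAb hearts (0.01, SE 0.08). Its partners Tfam, which packages and helps open the DNA, and Tfb2m, which helps start transcription, had log2 fold changes of 0.03 and -0.07 in the peptide study and of 0.10 for each in the antibody study. The elongation factor Tefm was at 0.05 and -0.22. Lrpprc and Slirp, which together bind and stabilise mitochondrial mRNAs, were at -0.12 and 0.04 in the peptide study and at 0.14 and -0.19 in the antibody study. All adjusted p-values of these genes were 0.776 or more with edgeR.

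The smallest p-values of the machinery list in the peptide study were those of Mrm1, an rRNA methyltransferase (16.8 to 24.6 CPM against 16.6 to 21.2, log2 fold change 0.29, edgeR adjusted p = 0.643), and Nsun2, an RNA methyltransferase (36.1 to 55.6 against 46.4 to 66.1 CPM, -0.26, adjusted p = 0.702). They were followed by Polrmt, 1110008L16Rik (-0.25) and Lars2, the leucyl-tRNA synthetase. Lars2 was 50.8 to 285 CPM in Aβ42 hearts and 57.3 to 552 CPM in ScrAβ42 hearts, with a log2 fold change of -0.84 (SE 0.52). For 3D6 against ControlAb they were Osgepl1, of a tRNA modification pathway (35.9 to 42.2 against 29.7 to 39.0 CPM, 0.19), and the seryl- and glutamyl-tRNA synthetases Sars2 (6.42 to 10.04 against 8.22 to 11.7 CPM, -0.30) and Ears2 (7.47 to 10.3 against 5.36 to 8.61 CPM, 0.28). Then came Mrm2 (0.23) and Trmu (-0.35), which modify rRNA and tRNA. Adjusted edgeR p-values of these were 0.944, and the ranges of the groups overlapped for all genes named.

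Across hearts, the nuclear genes whose log2 CPM followed that of mt-Co1 closely included Txnl1 (Spearman rho 0.925) and Rmdn1 (0.916) over the 14 peptide hearts, and Perm1 (0.976) and Egln1 (0.968) over the 16 antibody hearts. These are descriptions, since the hearts of a study share their table, their scaling and the differences in atrial markers or in share described above.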

How the data were processed

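Total RNA of left ventricle was sequenced from stranded libraries, and per the labels each heart came from a separate mouse. The authors deposited counts per gene (49671 genes, whole numbers) of the peptide hearts and estimated counts per transcript (142647 transcripts) of the antibody hearts, neither normalized. The submitters' processing notes name Salmon and GRCm38, and the methods name a GENCODE transcriptome. How the peptide table was summed to genes, and whether counting used strand, is not given in the sources used here. Here transcripts were summed to 55177 genes with GENCODE vM21 and rounded. 0.388% of estimated counts lay on transcripts it lacks. The peptide table had 1 count column that matched no labelled heart, and it was not used.

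Each study was fitted separately with edgeR 4.0.16 (R 4.3.3), keeping genes whose counts averaged 10 or more per heart, with TMM factors, quasi-likelihood test, two-sided, Benjamini-Hochberg over all genes. CPM used the TMM-scaled library sizes and shares the total counts. Ratios were log2 of counts plus 0.5, tested by exact permutation. Copies were found with BLAST+ 2.17.0. Tables were handled in Python 3.11.15. Tested on simulated data in which 200 genes were shifted by 1 on the log2 scale, the fit recovered 86% (5 false calls) in the peptide design and 87.5% (14 false calls) in the antibody design. The estimates of the mitochondrial genes were smaller, from -0.33 to 0.22 in the peptide study and from -0.29 to 0.25 in the antibody study. Recovery of shifts of that size was not tested.

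Alternatives were DESeq2 1.42.0, limma-voom (limma 3.58.1), RLE, upper-quartile and total count scaling, nuclear or mitochondrial library size, other count minimums, an atrial covariate, a pseudocount of 5, other denominators of the share and each heart left out. Summing genes with copies, leaving out hearts by atrial markers or by Gm29216, and consecutive mouse numbers as a block, were added after the data were seen. Values per group were given for both rRNAs, mt-Nd6, the highest and lowest protein-coding gene per length, tRNA genes that averaged 10 or more counts, and the 3 smallest p of a study. Named from the machinery list were 5 with the smallest p and 6 fixed genes. For mt-Co1 the 3 nuclear genes most like it in each study were to be named, and some are not reported here. Members and lists were chosen with earlier results of these data known. Limits of a count of 0 cover counting error only, and the intervals of log2 fold changes and the p-values measure the spread between mice.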

Additional observations from a re-analysis of the deposited data

Results flagged for a closer look

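In 100 groups of hearts examined, 1 heart stood apart from its group in 2 by Dixon's test, and chance alone marks about 1 in 20 groups. In the 3D6 group, the heart of mouse 20 had a log2 ratio of mt-Cytb to mt-Nd1 of 0.57, the highest, where the nearest heart had 0.50 and the lowest 0.45. In the Aβ42 group, the heart labelled Abeta42_3457 had 7617 CPM on mt-Nd4, the lowest, where the nearest heart had 12461 CPM and the highest 15733 CPM. This heart also had the lowest mitochondrial share of its group, 12.9%, and atrial markers above 1000 CPM. Why these hearts stood apart was not tested.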

How the results depend on the processing

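No mitochondrial gene was called under any alternative run. The difference in mitochondrial share was computed with other denominators and with hearts left out by atrial markers or by Gm29216, and stayed within 1 SD of its reported value. With those hearts left out it was 0.760 in place of 0.249 percentage points in the peptide study, and 1.56 in place of 1.92 in the antibody study. With each heart left out in turn, it ranged from -0.534 to 1.23 percentage points in the peptide study and from 1.11 to 2.80 in the antibody study. The peptide difference is small beside its SE of 1.55, and its sign depended on which heart was left out. The antibody difference stayed above 0. No mouse number is shared between groups and the labels name no pairs. Among antibody hearts consecutive numbers (3 and 4, 7 and 8, and so on) each join a 3D6 and a ControlAb heart, and a fit with these 8 couples as a block was added after the data were seen. Deviations from the group means correlated over 0.1 in 6 of 8 couples, from -0.26 to 0.44, and 2 of 8 3D6 hearts correlated best with the heart of their own couple. With this block all 15 genes kept their direction and 0 were called (adjusted edgeR p from 0.641 to 0.970), the genes with an unadjusted p under 0.05 went from 445 to 939 of 12141, with 1 mitochondrial gene, mt-Atp8, among them. The difference in mitochondrial share, 1.92, had an SE of 1.11, and it was above 0 in 6 of 8 couples. The log2 ratio of mt-Cytb to mt-Nd1 kept an unadjusted exact sign-flip permutation p of 0.0156. The number of genes above 0 in the peptide study went from 7 to 20 of 21 with the atrial covariate. That covariate turned mt-Rnr1 (0.084), mt-Rnr2 (0.12), mt-Tl1 (0.075), mt-Nd1 (0.29), mt-Ti (0.12), mt-Tm (0.087), mt-Ta (0.039), mt-Tc (0.15), mt-Nd4 (0.20), mt-Ts2 (0.10), mt-Nd5 (0.26), mt-Te (0.11) and mt-Tp (0.16) above 0. With the 5 hearts high in atrial markers left out, the sign turned for mt-Nd1 (0.036), mt-Tn (-0.057), mt-Tr (-0.057), mt-Nd4 (0.016) and mt-Nd5 (0.015). Under limma-voom it turned for mt-Tl1 (0.011), mt-Nd2 (-0.0049) and mt-Tn (-0.024), under total count scaling for mt-Tl1 (0.021), mt-Nd1 (0.00074), mt-Tm (0.020) and, in the antibody study, mt-Co2 (-0.018). With mitochondrial counts as library size it turned for mt-Tl1 (0.043) and mt-Tm (0.018), and in the antibody study for mt-Nd1 (-0.052), mt-Co2 (-0.14), mt-Co3 (-0.10) and mt-Nd6 (-0.036). Summing copies turned mt-Co3 (-0.012). Without the 4 hearts low on Gm29216, mt-Rnr1 (0.018), mt-Nd5 (-0.14), mt-Nd4l (-0.10) and the log2 ratios of mt-Rnr2 to mt-Rnr1 (-0.055, exact permutation p = 0.143) and of mt-Nd6 to mt-Nd5 (0.13, exact permutation p = 0.372) turned. The cause was not tested for any of these.

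With each heart left out in turn, between 1 and 13 of 21 peptide genes were above 0 (1 without ScrAbeta42_3448, 2 without Abeta42_3452, 4 without Abeta42_3451 or Abeta42_3456, 11 without ScrAbeta42_3445, 12 without Abeta42_3460 and 13 without Abeta42_3457), and between 10 and 12 of 15 antibody genes. Log2 fold changes in the peptide study ranged from -0.076 to 0.082 for mt-Tl1, -0.11 to 0.083 for mt-Nd1, -0.063 to 0.067 for mt-Tm, -0.072 to 0.10 for mt-Nd2, -0.093 to 0.14 for mt-Tn, -0.031 to 0.15 for mt-Co1, -0.034 to 0.27 for mt-Tr, -0.14 to 0.032 for mt-Nd4, -0.18 to 0.40 for mt-Tl2, -0.10 to 0.091 for mt-Nd5, -0.055 to 0.14 for mt-Nd6, -0.042 to 0.12 for mt-Cytb and -0.22 to 0.040 for mt-Tp, and in the antibody study from -0.096 to 0.19 for mt-Co2 and -0.013 to 0.17 for mt-Co3. The difference in the log2 ratio of mt-Rnr2 to mt-Rnr1 ranged from 0.080 to 0.15 in the peptide study, with an unadjusted exact permutation p of 0.0256 without Abeta42_3456 and 0.0379 without ScrAbeta42_3445, and from -0.0071 to 0.050 in the antibody study. Without the 5 hearts high in atrial markers this peptide difference was 0.073 (exact permutation p = 0.393), beside 0.113 with all hearts. That of mt-Nd6 to mt-Nd5 was then 0.033 (exact permutation p = 0.571), beside 0.061 with all hearts. Genes under a mean of 10 counts, among them 10 tRNA genes of the peptide study and all 22 of the antibody study, were too thinly covered for a test.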
